A study of Mus musculus with 11 samples.

Results

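STEMCCA, 1 of 4 reprogramming cassettes that carry the short form of Klf4, was set against the other 3, OKMS, EB-C5 and WTSI. The comparison rests on 4 of the 11 arrays of the study, 1 array for each cassette, and asks on which genes STEMCCA departs from cassettes of the same Klf4 form. All cells were male F1 hybrid mouse embryonic fibroblasts of genotype ROSA-rtTA; Nanog-GFP, taken at 13.5 dpc, so every group also carried the doxycycline-dependent transactivator and the Nanog reporter. The cassettes were PB-TAC piggyBac transposons, brought in with a transposase plasmid, and doxycycline at 1 ug/mL was given after 24 h. Cells positive for the linked mCherry reporter were sorted on day 6. The arrays outside the comparison served as further levels: the 4 remaining cassettes (OSKM, OK+9MS, MKOS and OKN-HAMS) and 2 constructs with Klf4 alone (Klf4S and Klf4L), handled in the same way, and lacZ, harvested on day 2 without a sort. The remaining cassettes and the Klf4-alone constructs also served to estimate the spread, to which lacZ, a group of 1 array, adds nothing. The sample labels name the cassette but not its Klf4 form, and the grouping by form was taken from knowledge of the study. Each array is a mixed population of transfected cells and not a clone, and the sources used here do not say whether several embryos were pooled.

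STEMCCA is a polycistronic cassette that encodes Oct4, Klf4, Sox2 and c-Myc in a single transcript, whose proteins are separated by self-cleaving peptides and an internal ribosome entry site. The order of the factors and the way they are linked set how much of each protein is made. The short form of Klf4 lacks a short N-terminal stretch that the long form has. In reprogramming of fibroblasts, mesenchymal genes are shut down early, epithelial genes come on, and the pluripotency network follows later in a minority of cells. Fibroblasts also respond to foreign nucleic acid with type I interferon, which switches on interferon-stimulated genes.

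The values are log2 signals made by the authors with RMA, so a difference of 1 is 2-fold, and 19938 genes had a probe set with 1 symbol. The number of arrays limits the precision. Array medians ran from 7.188 to 7.269 over the 11 arrays. Over all genes, a correlation across genes that are not independent replicates, STEMCCA had an r of 0.981 with OKMS, 0.979 with EB-C5 and 0.982 with WTSI. Between the other 3 cassettes r was 0.984 to 0.988. Outside the comparison, STEMCCA had an r of 0.982 with MKOS and 0.981 with lacZ, and 0.964 to 0.976 with the other arrays. STEMCCA differed 2-fold or more from OKMS in 580 genes, from EB-C5 in 657 and from WTSI in 561, against 355 between OKMS and EB-C5, 401 between OKMS and WTSI and 183 between EB-C5 and WTSI. No cassette was measured on a second array, so the spread between OKMS, EB-C5 and WTSI is that between constructs. In bulk samples such as these, fewer cells of a type and less RNA per cell cannot be told apart.

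The 4 reprogramming factors were read first. Pou5f1, which encodes Oct4, read 11.89 in STEMCCA, against 13.22 in OKMS, 12.94 in EB-C5 and 12.88 in WTSI. It was lower in STEMCCA than on any of the 7 other cassette arrays, the nearest of which was MKOS at 12.29, and stood far above the 6.06, 5.84 and 6.09 of Klf4S, Klf4L and lacZ. The difference from the mean of the 3 was -1.12 ± 0.30 (SE), and it did not pass limma with Benjamini-Hochberg adjustment over all genes (adjusted p = 0.248). Sox2 read 6.22 in STEMCCA, against 6.58, 6.88 and 7.76 in OKMS, EB-C5 and WTSI (difference -0.86, limma adjusted p = 0.402). Klf4 read 9.64 in STEMCCA, against 9.94, 9.90 and 10.20 (difference -0.38, limma adjusted p = 0.526). Myc read 10.49 in STEMCCA, inside the range of 9.86 to 10.77 of the other 3. STEMCCA thus had the lowest reading of the 8 cassettes for 3 of the 4 factors, although for Klf4 MKOS was level with it at 9.65. The Sox2 and Klf4 readings hardly separated cassettes from lacZ, which read 6.79 and 9.47, and the Sox2 difference was -0.51 without WTSI. Where in the transcript the probes lie was not given, so signal of the cassette and of the cell's own gene cannot be told apart, and protein levels were not measured.

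Genes were compared in 3 ways. The limma fit over all 11 arrays in 5 groups called 0 of 19938 genes higher (0%) and 7 lower (0.0351%) in STEMCCA at an adjusted p under 0.05. Before adjustment 1312 genes (6.58%) had a p under 0.05 with a higher level and 1086 (5.45%) with a lower level. Counts of list members at an unadjusted p are to be read beside these shares. A 2-fold difference from the mean of the other 3 together with a level outside their range was met by 246 genes that were higher (1.23%) and 131 that were lower (0.657%) in STEMCCA, which is a description with no test. A stricter rule, 2-fold beyond the nearest of the 3, was met by 89 higher (0.446%) and 35 lower genes (0.176%). With no threshold on size, STEMCCA lay above all 3 in 25.1% of genes and below all 3 in 29.4%. The scatter plot of STEMCCA against the mean of the other 3 shows these genes on both sides of the diagonal at low and high signal.

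**Figure D1:**
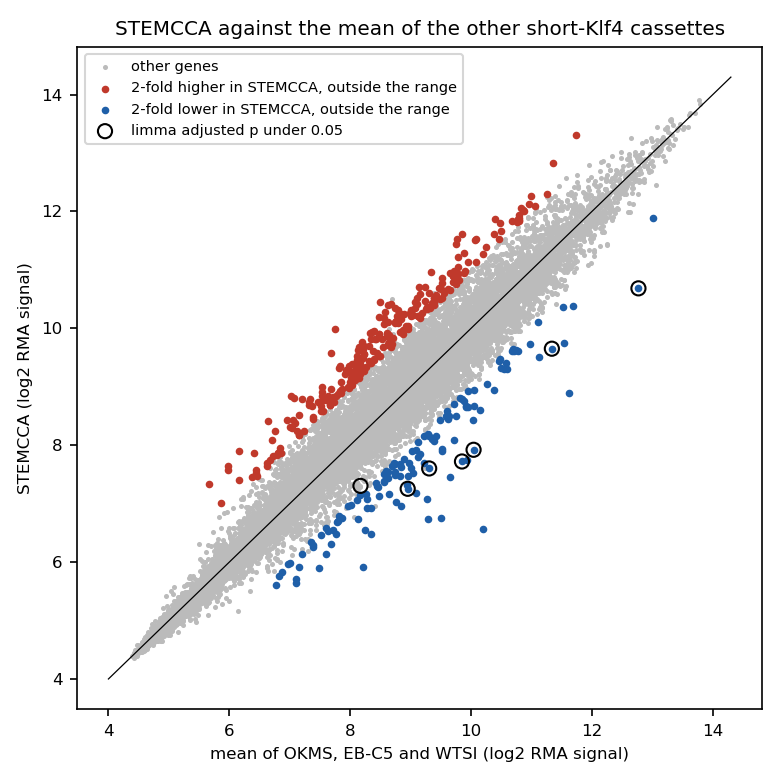
Log2 RMA signal of 19938 genes in STEMCCA (vertical axis) against the mean of OKMS, EB-C5 and WTSI (horizontal axis), 1 point per gene, with the line of equal signal. Red points are the 246 genes 2-fold higher and outside the range of the 3 arrays, blue points the 131 that were 2-fold lower, and black rings the 7 genes called by limma, which all lie below the line.

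The same rule was applied to each of the other cassettes in turn to place these counts. OKMS against the other 3 short-Klf4 cassettes, STEMCCA included, gave 224 genes 2-fold away and outside the range (1.12%), EB-C5 gave 137 (0.687%) and WTSI 152 (0.762%), against 377 for STEMCCA (1.89%). STEMCCA had the most such genes of the 4 in both directions, 246 higher and 131 lower. The other cassettes had 162 higher and 62 lower (OKMS), 59 and 78 (EB-C5) and 66 and 86 (WTSI). These counts share arrays and carry no test of their difference.

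The 7 genes called lower in STEMCCA than in the other 3 cassettes include an epithelial junction gene and genes best known from neurons. Dsp, which encodes desmoplakin, the plaque protein that ties desmosomes to keratin filaments, read 7.72 in STEMCCA, against 9.89 in OKMS, 9.89 in EB-C5 and 9.76 in WTSI. The 3 other cassettes lay within a narrow band, and STEMCCA lay well below it. Dsp was lower by 2.13 on the log2 scale (95% confidence interval -2.43 to -1.82, limma adjusted p = 0.00469). The remaining 4 cassettes read 11.06 to 11.40, Klf4S and Klf4L 9.78 and 9.80 and lacZ 6.83, so that STEMCCA was the cassette nearest to lacZ for this gene.

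Stmn2, a microtubule-destabilising phosphoprotein of growing neurons, read 10.68 in STEMCCA, against 12.71, 13.05 and 12.55 in OKMS, EB-C5 and WTSI (difference -2.09 ± 0.18 SE, limma adjusted p = 0.0125). Uchl1, a ubiquitin hydrolase abundant in neurons, read 9.65 in STEMCCA, against 11.48, 11.27 and 11.26 (difference -1.69 ± 0.18 SE, limma adjusted p = 0.0424). Adap1, a regulator of Arf GTPases that is abundant in brain, read 7.92 in STEMCCA, against 10.11, 10.08 and 9.94 (difference -2.12 ± 0.22 SE, limma adjusted p = 0.0424). For these 3 genes the other 7 cassettes formed a single high group, and STEMCCA alone among the cassettes lay apart from it. lacZ read 11.07 for Stmn2, 9.67 for Uchl1 and 6.41 for Adap1, so STEMCCA was below lacZ for Stmn2, close to it for Uchl1 and above it for Adap1.

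Vtcn1, which encodes the inhibitory immune ligand B7-H4, read 7.25 in STEMCCA, against 8.86, 9.00 and 8.99 in OKMS, EB-C5 and WTSI (difference -1.70 ± 0.13 SE, limma adjusted p = 0.0125). It read 10.43 to 10.78 in the remaining 4 cassettes and 7.19 in lacZ. Ccdc116 read 7.60 in STEMCCA, against 9.16, 9.42 and 9.34 (difference -1.70 ± 0.14 SE, limma adjusted p = 0.0125). Its level in the remaining 4 cassettes, 8.47 to 8.73, was between those of STEMCCA and the other short-Klf4 cassettes. Dhrs13, of the short-chain dehydrogenase family, read 7.30 in STEMCCA, against 8.13, 8.25 and 8.13 (difference -0.87 ± 0.09 SE, limma adjusted p = 0.0441), less than 2-fold, and the remaining 4 cassettes read 7.47 to 7.65. STEMCCA has 1 array and was assumed in these tests to vary as the other groups do. With only the 8 cassette arrays Dsp alone was still called (adjusted p = 0.0385). The Dhrs13 call was also lost with a variance trend (adjusted p = 0.0715), after centring each array on its median (0.0587) and among genes with a mean of at least 6 (0.0635). Fitted on the 4 short-Klf4 arrays alone, limma called 0 genes (2028 at an unadjusted p under 0.05, all 7 genes at an adjusted p of 0.329). Without OKMS it called 33 genes, 13 higher and 20 lower, among them these 7, while without EB-C5 it called 6 and without WTSI 7, of which 4 were of these 7 each time; Adap1, Uchl1 and Dhrs13 were lost in both.

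**Figure D2:**
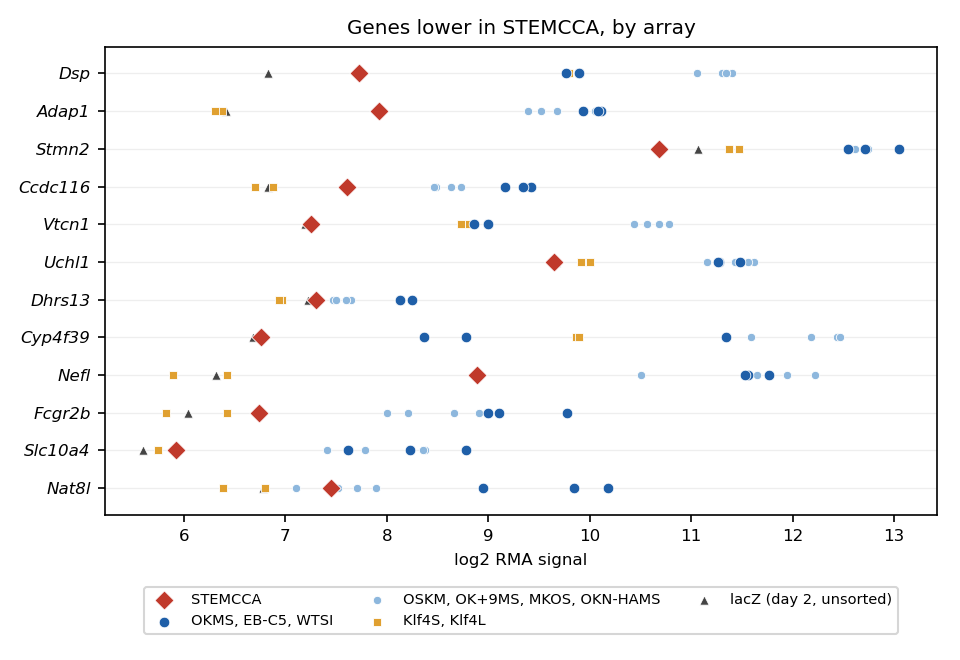
Log2 RMA signal (horizontal axis) of 12 genes that read lower in STEMCCA, 1 point per array, with STEMCCA as red diamonds, OKMS, EB-C5 and WTSI as dark blue circles, the 4 remaining cassettes as light blue circles, Klf4S and Klf4L as squares and lacZ as triangles. The upper 7 genes passed limma and the lower 5 did not; in each row STEMCCA lies left of all 3 other short-Klf4 cassettes.

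Beyond the called genes, 5 genes were named for the largest differences among those 2-fold below the nearest of the 3. Nefl, the light neurofilament subunit, read 8.89 in STEMCCA, against 11.77, 11.56 and 11.53 in OKMS, EB-C5 and WTSI (difference -2.73 ± 0.57 SE, limma adjusted p = 0.202). Cyp4f39, a cytochrome P450 that serves lipid synthesis of the skin barrier, read 6.76 in STEMCCA, against 11.35, 8.37 and 8.78 (difference -2.74 ± 0.98 SE, limma adjusted p = 0.334). The 3 other cassettes were close together for Nefl and far apart for Cyp4f39. Fcgr2b, the inhibitory receptor for the Fc part of IgG, read 6.74 in STEMCCA, against 8.99, 9.78 and 9.11 (limma adjusted p = 0.145). Nat8l, which makes N-acetylaspartate in neurons, read 7.45, against 8.95, 9.85 and 10.18 (limma adjusted p = 0.202). For Nat8l the remaining 4 cassettes read 7.11 to 7.89, around the level of STEMCCA. Slc10a4, a transporter-family protein of synaptic vesicles, read 5.92 in STEMCCA, against 8.78, 7.62 and 8.23. The measured difference was -2.29 (limma adjusted p = 0.202). A level under 6 is taken here as not told from background, and with STEMCCA set to that level the difference was -2.21, a lower bound in size.

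Of 27 neuronal and neuroendocrine genes measured, 16 lay below all 3 and 5 above, with 6 lower and 0 higher at an unadjusted p under 0.05. Of the 27, 2 passed limma (Stmn2 and Uchl1, both lower), 4 were 2-fold lower and outside the range and 0 were 2-fold higher and outside it. The remaining pair of the 4 past the 2-fold rule was Nefl and Tubb3, the neuronal tubulin, which read 7.61 in STEMCCA, against 8.69, 9.58 and 8.74. The list's median difference was -0.17, against -0.01 over all genes. Of all genes 29.4% lay below all 3 and 0.657% were 2-fold lower and outside the range. At an unadjusted p under 0.05 in the limma fit, 5.45% of all genes were lower. Map2 and Gap43, both neuronal cytoskeleton or growth-cone genes, read higher in STEMCCA by 0.75 and 0.69.

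Interferon-stimulated genes read higher in STEMCCA as a group. Of 22 measured, 20 lay above all 3 other cassettes, 12 were 2-fold higher and outside the range, and 0 were 2-fold lower and outside it. By comparison, 25.1% of all genes lay above all 3 and 1.23% were 2-fold higher and outside the range. The median difference was 1.03, against -0.01 over all genes. 0 members passed limma and 14 had an unadjusted p under 0.05, all of them higher, against 6.58% of all genes.

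Ifit3, an antiviral protein that binds to other members of the Ifit family, read 11.62 in STEMCCA, against 10.04, 9.98 and 9.55 in OKMS, EB-C5 and WTSI (difference 1.76 ± 0.54 SE, limma adjusted p = 0.289). Usp18, which removes the ubiquitin-like Isg15 from proteins and dampens interferon signalling, read 10.35 in STEMCCA, against 9.17, 8.42 and 8.65 (difference 1.60 ± 0.54 SE, limma adjusted p = 0.316). Irf7, the interferon regulatory factor that amplifies the response, read 9.65 in STEMCCA, against 8.49, 7.88 and 8.25 (difference 1.45 ± 0.35 SE, limma adjusted p = 0.226). In each of these genes STEMCCA stood more than 2-fold above the highest of the 3. Stat2, a subunit of the factor that transmits the interferon signal, read 10.12 in STEMCCA, against 8.75, 8.90 and 8.61 (difference 1.36 ± 0.30 SE, limma adjusted p = 0.209). Its partner Irf9 read 10.41, against 9.28, 9.10 and 8.95. Oasl2, of the oligoadenylate synthetase family, read 11.61, against 10.34, 10.59 and 10.22. These 6 genes are the members that met the stricter rule of 2-fold beyond the nearest array.

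The other 6 members that met the 2-fold rule were the chemokine Cxcl10 (1.18), the GTPase Gbp3 (1.17), the antiviral enzyme Rsad2 (1.09), Ifit2 (1.08), Ifit1 (1.05) and the RNA sensor Ifih1 (1.01). Rsad2 read 10.34 in STEMCCA, against 9.10, 9.91 and 8.74, and Gbp3 read 8.77, against 7.21, 7.61 and 7.96. Rsad2 of EB-C5 was thus within 2-fold of STEMCCA, and for Gbp3 the nearest was WTSI. Members with small differences were Oas1a (0.41) and Oasl1 (0.28), and Mx1 and Oas3 read inside the range of the 3, at 5.90 and 6.54 in STEMCCA. On the other arrays the median of the list, taken as a difference from the mean of OKMS, EB-C5 and WTSI, was 0.69 in MKOS, 0.21 in OK+9MS, 0.11 in OSKM and -0.17 in OKN-HAMS, 0.91 in Klf4S, 0.98 in Klf4L and 1.33 in lacZ. STEMCCA had the highest level of the 8 cassettes in 17 of the 22 genes, against 14.7% of all genes. The levels of the list in Klf4 alone and lacZ were near or above those in STEMCCA. The plot of these genes by array shows STEMCCA among the Klf4-alone arrays in most rows.

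**Figure D3:**
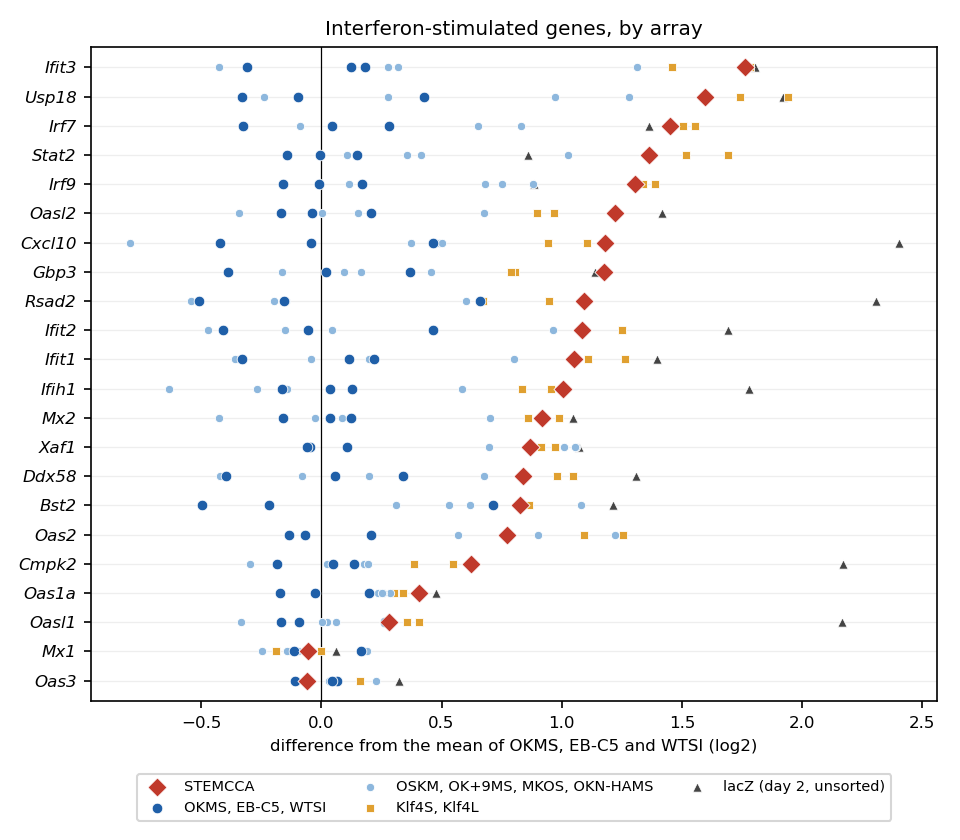
Difference of each array from the mean of OKMS, EB-C5 and WTSI (horizontal axis, log2) for 22 interferon-stimulated genes, ordered by the difference in STEMCCA (red diamonds), with OKMS, EB-C5 and WTSI as dark blue circles, the 4 remaining cassettes as light blue circles, Klf4S and Klf4L as squares and lacZ as triangles. STEMCCA lies right of all 3 dark circles in 20 of the 22 rows, and no gene passed limma.

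Interferon acts on its target genes through a promoter element with the core GAAANNGAAA. To show it, 4 promoters are printed, of list members past the 2-fold rule. They were picked by size of difference among those with a match in the printed bases, so each holds the element by choice. Of the other members past the 2-fold rule, Irf7, Irf9, Oasl2, Ifit2 and Ifih1 held no match in the 250 bases searched. Stat2 and Cxcl10 held a match there but none within the 200 bases used for printing, and Usp18 had no promoter sequence. Each is the 200 bases before the gene start in RefSeq (GRCm38.p6), 5′ to 3′ on the gene's strand, with matches to the element on either strand in capitals. All matches printed lie on the opposite strand, and so appear as the reverse complement. Overlapping matches form a single run of capitals in Gbp3. The promoters were Ifit3 at chr19:34583329-34583528 (plus strand), Gbp3 at chr3:142559844-142560043 (plus strand), Rsad2 at chr12:26456453-26456652 (minus strand) and Ifit1 at chr19:34640689-34640888 (plus strand).
Ifit3: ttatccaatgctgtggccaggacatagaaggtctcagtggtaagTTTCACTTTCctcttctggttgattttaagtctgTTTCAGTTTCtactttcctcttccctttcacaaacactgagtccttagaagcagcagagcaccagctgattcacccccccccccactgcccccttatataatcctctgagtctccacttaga
Gbp3: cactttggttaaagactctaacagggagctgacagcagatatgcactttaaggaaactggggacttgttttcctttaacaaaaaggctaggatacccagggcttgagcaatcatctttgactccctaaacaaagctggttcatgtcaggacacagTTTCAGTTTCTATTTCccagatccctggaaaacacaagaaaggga
Rsad2: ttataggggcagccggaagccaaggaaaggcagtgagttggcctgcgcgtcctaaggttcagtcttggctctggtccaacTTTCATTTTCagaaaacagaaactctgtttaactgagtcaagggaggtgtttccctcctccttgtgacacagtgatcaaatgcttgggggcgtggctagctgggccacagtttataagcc
Ifit1: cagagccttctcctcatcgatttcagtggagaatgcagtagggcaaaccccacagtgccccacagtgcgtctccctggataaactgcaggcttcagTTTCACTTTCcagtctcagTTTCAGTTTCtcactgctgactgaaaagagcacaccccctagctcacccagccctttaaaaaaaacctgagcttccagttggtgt
The matches in Ifit3, Gbp3 and Ifit1 numbered 2 each, and Rsad2 had 1. The match nearest to the start began 122 bases before it in Ifit3, 39 in Gbp3, 120 in Rsad2 and 85 in Ifit1.

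Over the 250 bases before the start, 978 of 32851 RefSeq promoters (2.98%) held a match to GAAANNGAAA on either strand, and so did 531 of the 15614 measured genes found in the promoter table (3.4%). Of the 18 interferon-list genes found there, 9 held a match (50%), and of their 11 members that were 2-fold higher in STEMCCA and outside the range, 6 did (54.5%). Among all 176 genes with a promoter sequence that were 2-fold higher and outside the range, 25 held a match (14.2%), and without the interferon list 19 of 165 did (11.5%). Among the 107 such genes that were 2-fold lower, 4 did (3.74%). These shares describe letters in the sequence, and binding of any factor was not measured.

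Collagens and other genes of the fibroblast matrix also read higher in STEMCCA. All 16 collagen genes measured lay above all 3 other cassettes, 3 of them 2-fold higher and outside the range, with a median difference of 0.74; 0 passed limma and 11 had an unadjusted p under 0.05. Of 30 fibroblast and mesenchymal genes 25 lay above all 3, 5 were 2-fold higher and 0 lower, with a median of 0.65; 0 passed limma and 8 had an unadjusted p under 0.05. These 2 lists hold genes known from fibroblasts, and on both of them the median of lacZ was below that of STEMCCA. By comparison, 25.1% of all genes lay above all 3 and 1.23% were 2-fold higher and outside the range. At an unadjusted p under 0.05 in the limma fit, 6.58% of all genes were higher. The median of the fibroblast list was 0.52 in MKOS, 0.82 in Klf4S, 0.91 in Klf4L and 0.35 in lacZ. Levels of the fibroblast list ran from 6.42 to 13.64 in STEMCCA, against 6.32 to 13.55 in OKMS, 6.41 to 13.61 in EB-C5 and 6.22 to 13.65 in WTSI, with Tcf21 the lowest and vimentin (Vim) the highest.

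Col5a2, a fibrillar collagen chain, read 10.22 in STEMCCA, against 8.75, 9.11 and 9.16 in OKMS, EB-C5 and WTSI (difference 1.21 ± 0.52 SE, limma adjusted p = 0.407). Col3a1, the chain of type III collagen, read 10.94 in STEMCCA, against 9.54, 9.94 and 9.81 (difference 1.18 ± 0.36 SE, limma adjusted p = 0.285). In both genes STEMCCA stood just over 2-fold above the highest of the 3, and lacZ read 9.51 and 8.93. Col8a1 read 11.39 in STEMCCA, against 10.65, 9.92 and 10.19. Col1a1 and Col1a2, the chains of type I collagen, read higher in STEMCCA by 0.69 and 0.87 and did not reach 2-fold. STEMCCA had the highest level of the 8 cassettes in 13 of the 16 collagens, against 14.7% of all genes. The list medians above the 3 were 1.06 in Klf4S, 1.02 in Klf4L, 0.66 in MKOS and 0.08 in lacZ, against 0.74 for STEMCCA.

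Postn, which encodes the matrix protein periostin, read 12.84 in STEMCCA, against 11.98, 11.27 and 10.83 in OKMS, EB-C5 and WTSI (difference 1.48 ± 0.72 SE, limma adjusted p = 0.462). Mfap5, a microfibril protein, read 9.62 in STEMCCA, against 8.97, 7.93 and 8.26. Thy1, a surface antigen of fibroblasts that is lost early in reprogramming, read 11.66, against 11.36, 9.64 and 10.47. OKMS was the nearest of the other short-Klf4 cassettes for these 3 genes, within 2-fold of STEMCCA in each. Mfap5 read 10.21 in OSKM, 9.86 in OK+9MS and 10.13 in MKOS, above STEMCCA, and 7.94 in OKN-HAMS. Postn read 12.80 in MKOS, close to STEMCCA. Ogn, the matrix proteoglycan osteoglycin, read 11.94 in STEMCCA, against 10.55, 11.08 and 10.74. The fifth member past the 2-fold rule, Lum (lumican), read 9.46, against 7.58, 9.25 and 8.38. S100a4, Dcn, Fmod, Meox2 and Vim were the members that did not lie above all 3.

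Genes that cut and remodel the matrix followed. Of 18 metalloproteinases and inhibitors 4 were 2-fold higher and outside the range and 0 lower, with a median of 0.52. The share of all genes 2-fold higher and outside the range was 1.23%. The list median of MKOS was 0.62, above that of STEMCCA. The highest level of the 8 cassettes was that of STEMCCA in 6 of the 18 genes (33.3%), against 14.7% of all genes. Adamts5, an aggrecan-cleaving protease, read 10.45 in STEMCCA, against 8.38, 9.47 and 7.64 in OKMS, EB-C5 and WTSI, and Mmp19 read 10.04, against 8.96, 8.93 and 8.90. The 3 other cassettes spread widely for Adamts5 and hardly at all for Mmp19, whose difference was 1.11 ± 0.28 (SE, limma adjusted p = 0.244). Adamts1 and Mmp14, the membrane-bound collagenase, read higher in STEMCCA by 1.22 and 1.09. Mmp14 read 11.96 in MKOS, against 11.88 in STEMCCA. Of 16 TGF-beta ligands and targets 2 were 2-fold higher, the receptor Tgfbr2 (1.20) and the TGF-beta-binding protein Ltbp2 (1.03). The median of that list, 0.38, did not set STEMCCA apart, since it was also 0.38 in WTSI and 0.37 in OK+9MS. It ran from 0.14 to 0.66 with 1 of the 3 arrays left out, the lowest without OKMS and the highest without WTSI. STEMCCA had the highest level of the 8 cassettes in 3 of the 16 genes (18.8%), near the 14.7% of all genes. Of 17 smooth muscle genes 15 lay above all 3, against 25.1% of all genes, and 1, the integrin Itga8 (1.02), was 2-fold higher. The median of this list was 0.50, and 0.20 without EB-C5.

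Transcription factors of the epithelial-mesenchymal transition had a median of 0.67, with 7 of 9 above all 3, against 25.1% of all genes, and 0 below. Zeb1, which represses Cdh1, read 11.13 in STEMCCA, against 9.99, 10.23 and 10.00 in OKMS, EB-C5 and WTSI (difference 1.06 ± 0.46 SE, limma adjusted p = 0.413). Twist1 and Snai2 read higher by 0.93 and 0.79, while Snai1 and Foxc2 lay inside the range. MKOS was close to STEMCCA for Zeb1, at 11.04, and Klf4S, Klf4L and lacZ read 11.51, 11.41 and 11.07. 0 members of the matrix-remodelling, TGF-beta, smooth muscle and transition lists passed limma, and 5, 4, 4 and 5 of them had an unadjusted p under 0.05. All of these were higher, against 6.58% of all genes.

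**Figure D4:**
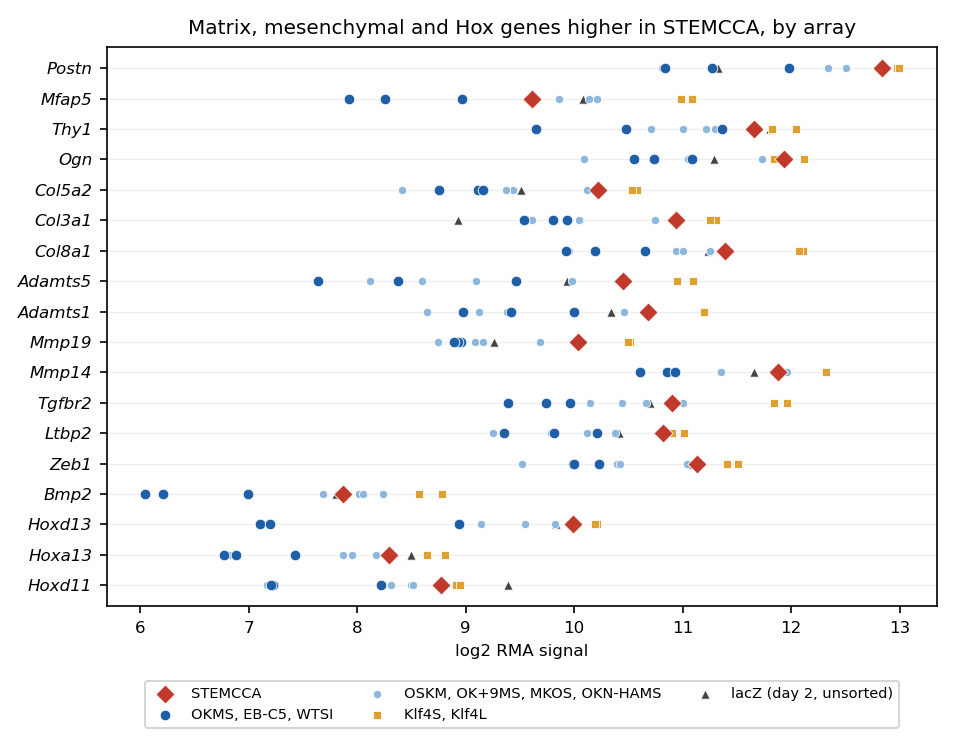
Log2 RMA signal (horizontal axis) of 18 matrix, mesenchymal, BMP and Hox genes that were 2-fold higher in STEMCCA and outside the range of OKMS, EB-C5 and WTSI, 1 point per array, with STEMCCA as red diamonds, the 3 other short-Klf4 cassettes as dark blue circles, the 4 remaining cassettes as light blue circles, Klf4S and Klf4L as squares and lacZ as triangles. STEMCCA lies right of the 3 dark circles in each row and left of, or among, the squares in most; no gene passed limma.

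On the higher side, 12 genes were named for the largest differences from the mean of the 3 among those 2-fold above the nearest array. They include 4 interferon-inducible genes and a limb Hox gene, and none passed limma. Hoxd13, which patterns the digits, had the largest difference, 2.24 ± 1.05 (SE, limma adjusted p = 0.444). It read 9.99 in STEMCCA, against 8.94, 7.11 and 7.19 in OKMS, EB-C5 and WTSI. OKMS was thus far above EB-C5 and WTSI, and STEMCCA a further 2-fold above OKMS. Of 25 Hox genes measured, 3 were 2-fold higher and outside the range, Hoxd13, Hoxa13 (1.27) and Hoxd11 (1.22), all posterior members of their clusters, and 0 were lower; the median of the list was 0.03, and 0.26 without WTSI and -0.07 without OKMS. The share of all genes 2-fold higher and outside the range was 1.23%. lacZ read 9.83 for Hoxd13, 8.49 for Hoxa13 and 9.39 for Hoxd11.

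The Wnt antagonist Dkk2 read 9.59 in STEMCCA, against 8.43, 7.32 and 7.30 in OKMS, EB-C5 and WTSI (limma adjusted p = 0.385). The chemokine Cxcl15 read 8.84, against 7.46, 7.44 and 6.14 (limma adjusted p = 0.452). OKMS stood above EB-C5 and WTSI for Dkk2, as for Hoxd13, while for Cxcl15 OKMS and EB-C5 were level and WTSI was lower. Phyhd1, of the phytanoyl-CoA dioxygenase family, read 10.40 in STEMCCA, against 8.76, 8.61 and 8.52 (difference 1.77 ± 0.35 SE, limma adjusted p = 0.202). Gxylt2, which extends sugars on Notch, read 10.28, against 8.43, 8.75 and 8.57 (limma adjusted p = 0.232). For these last genes the 3 other cassettes were close together, and STEMCCA stood over 2-fold above each. The glycine receptor subunit Glrb (1.73), the stress-related Niban1 (1.72) and Rtl3 (1.70), which derives from a retrotransposon, also read higher. The interferon-inducible ones were Ifit3, the GTPase Iigp1 (1.78), Trim30a (1.75) and Ifit3b (1.67); Ifit3b is a close copy of Ifit3, and the probes may read both. Ifit3b of WTSI read 5.69, and with that level set to 6 the difference was 1.57, a lower bound.

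Genes of ribosome biogenesis read lower in STEMCCA, with 1 of them past 2-fold. Of 25 genes of ribosome biogenesis and known Myc targets 23 lay below all 3 other cassettes and 0 above, with a median difference of -0.52; 1 was 2-fold lower and outside the range, 0 passed limma and 14 had an unadjusted p under 0.05. That one was Gar1, a protein of the particles that modify ribosomal RNA, which read 9.65 in STEMCCA, against 10.44, 10.99 and 10.65 in OKMS, EB-C5 and WTSI (difference -1.04 ± 0.25 SE, limma adjusted p = 0.231). Polr1b, a subunit of RNA polymerase I, and the nucleolar protein Nop2 read lower by 0.82 and 0.76, and Npm1 read inside the range. The Myc signal itself lay inside the range of the other 3. By comparison, 29.4% of all genes lay below all 3 and 0.657% were 2-fold lower and outside the range. At an unadjusted p under 0.05 in the limma fit, 5.45% of all genes were lower. STEMCCA had the lowest level of the 8 cassettes in 9 of the 25 genes, against 13.9% of all genes. The list median of MKOS, -0.57, was lower than that of STEMCCA.

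Genes of cell division were less clearly apart. Of 26 DNA replication genes 14 lay below all 3 and 0 above (median -0.38), and of 25 mitosis genes 10 lay below and 0 above (median -0.27), beside 29.4% of all genes below all 3. With 1 array left out the medians ran from -0.59 to -0.26 and from -0.42 to -0.17, the lowest without WTSI and the highest without OKMS, and against all 7 other cassettes they were -0.08 and -0.02. 0 of either list were 2-fold away and outside the range, and 0 passed limma. At an unadjusted p under 0.05, 2 replication genes and 0 mitosis genes were lower, beside 5.45% of all genes. WTSI had list medians like those of STEMCCA, -0.41 for replication and -0.31 for mitosis. Of 14 cholesterol synthesis genes 13 lay below all 3, with a median of -0.29. STEMCCA had the lowest level of the 8 cassettes in 11 of them, against 13.9% of all genes. Sqle, squalene epoxidase, read 9.57 in STEMCCA, against 9.95, 10.64 and 10.24. Of 22 oxidative phosphorylation genes 15 lay below and 1 above, with a median of -0.23. Cell cycle inhibitors and p53 targets had a median of 0.25, and the inhibitor Cdkn1c read 10.25 in STEMCCA, against 8.69, 9.43 and 8.54 (difference 1.36 ± 0.43 SE, limma adjusted p = 0.299).

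Further lists had medians between -0.10 and 0.29. Of 15 genes of BMP signalling (median 0.19, and 0.05 to 0.43 with 1 array left out, lowest without OKMS and highest without WTSI) 1 was 2-fold higher and outside the range, the ligand Bmp2, which read 7.87 in STEMCCA, against 6.99, 6.21 and 6.04 in OKMS, EB-C5 and WTSI (limma adjusted p = 0.227). Of 26 chemokines and cytokines (median 0.03) 3 were, Cxcl15, Cxcl5 (1.11) and the stromal chemokine Cxcl12 (1.04), and of 14 trophoblast genes (median 0.02) 1 was, Plac8 (1.43). Of 13 Kruppel-like factors (median -0.10) 1 was 2-fold lower, Klf8, which read 8.50 in STEMCCA, against 9.74, 9.58 and 9.43 (limma adjusted p = 0.125), and of 10 DNA methylation enzymes (median -0.03) 1 was, Tet2. No member was 2-fold away and outside the range on the lists of FGF and ERK feedback (median 0.29, and 0.10 without EB-C5), unfolded protein and amino acid stress (0.26), glycolysis (0.11), AP-1 (0.09), endoderm (0.01), Polycomb repressive complex 2 (-0.01) and heat shock genes (-0.02). These medians are to be read beside -0.01 over all genes, and the counts beside 1.23% of all genes higher and 0.657% lower. For Bmp2 the remaining 4 cassettes read 7.68 to 8.24, around the level of STEMCCA.

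**Figure D5:**
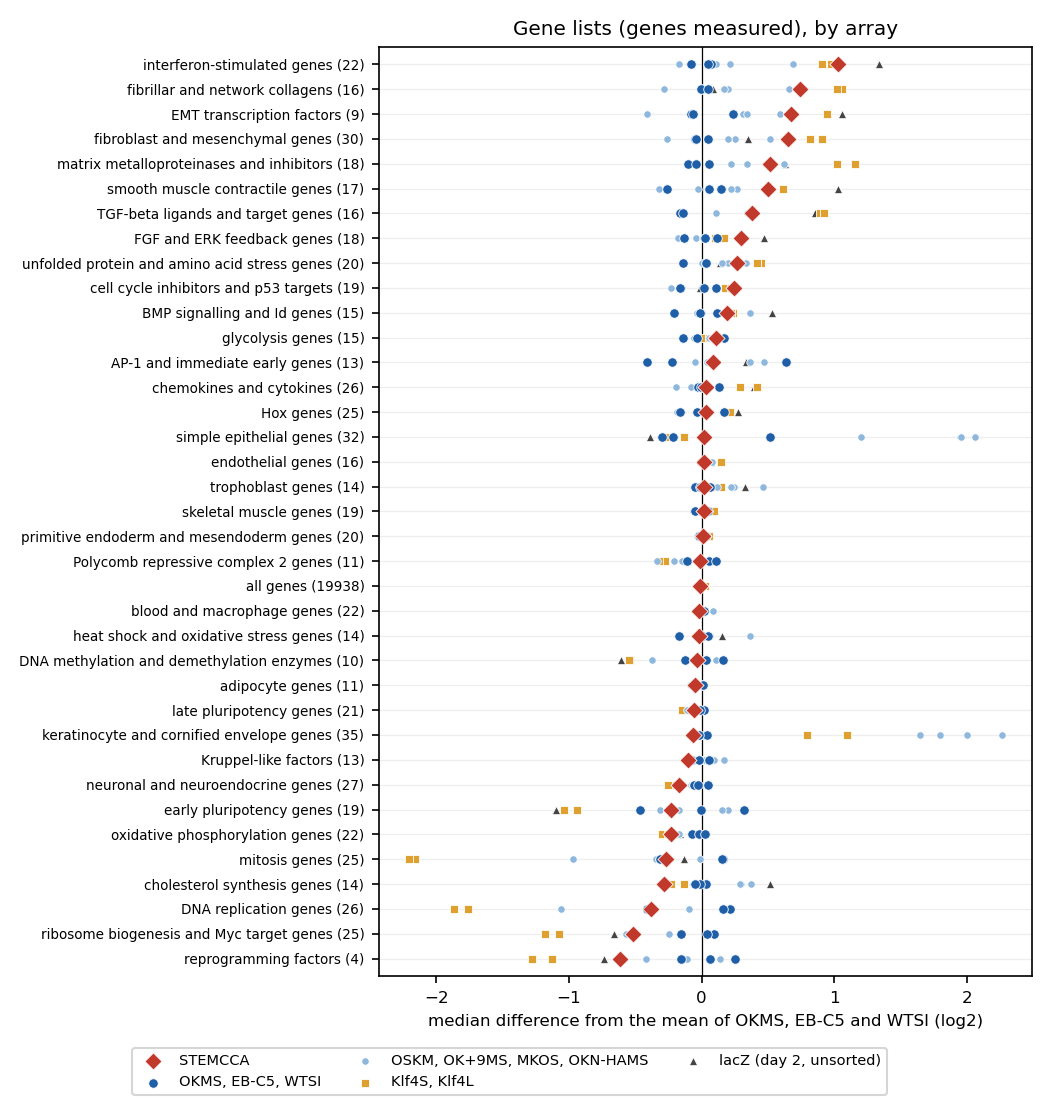
Median over each gene list of the difference from the mean of OKMS, EB-C5 and WTSI (horizontal axis, log2), 1 point per array, for 36 lists and all genes, with the number of genes measured in brackets and STEMCCA as red diamonds, OKMS, EB-C5 and WTSI as dark blue circles, the 4 remaining cassettes as light blue circles, Klf4S and Klf4L as squares and lacZ as triangles. STEMCCA runs from 1.03 for interferon-stimulated genes to -0.62 for the 4 reprogramming factors, with a median of -0.01 over all genes.

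No gene of the early and late pluripotency lists met the 2-fold rule. Pou5f1, which was listed with the 4 factors, did meet it as a lower gene (-1.12). Of 19 early pluripotency genes 0 were 2-fold away and outside the range, with a median of -0.23 that turned to 0.17 without OKMS. Of 21 late pluripotency genes 0 were, with a median of -0.06. Nanog read 10.60 in STEMCCA, between 11.05 in OKMS and 9.76 in EB-C5, with 7.33 in WTSI. The cells carry a Nanog reporter on a transgene, and whether the probes read it was not tested. The early gene Lin28b, which blocks let-7 maturation, read 6.39 in STEMCCA, below the 7.58, 7.39 and 6.80 of OKMS, EB-C5 and WTSI. Tet2, a dioxygenase that oxidises methylcytosine, read 8.65 in STEMCCA, against 10.01, 10.32 and 9.53 (difference -1.30 ± 0.40 SE, limma adjusted p = 0.292).

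Epithelial genes were mixed. Of 32 simple epithelial genes 0 were 2-fold away and outside the range, with a median of 0.02. Cdh1 read 9.63 in STEMCCA, against 10.10 in OKMS, 7.43 in EB-C5 and 7.65 in WTSI, and Epcam read 8.17, against 9.26, 7.99 and 6.82. STEMCCA and OKMS were thus alike in having the higher Cdh1. Of 35 keratinocyte and cornified envelope genes 4 were 2-fold lower and outside the range, against 0.657% of all genes, and 0 higher, with a median of -0.06. These 4 were Dsp, the only member that limma called, the desmosomal cadherin Dsc2 (-1.09) and the keratins Krt17 (-1.02) and Krt13 (-1.02). With 1 of the 3 arrays left out, the differences of Dsc2, Krt17 and Krt13 shrank to as little as -0.79, -0.39 and -0.68. Of the 35 genes 10 lay below all 3, near the share of all genes, 29.4%. Krt17 read 6.96 in STEMCCA, against 9.21, 7.23 and 7.47, so its difference rests on OKMS. Against all 7 other cassettes the medians were -0.96 for simple epithelial and -1.59 for keratinocyte genes, since the remaining 4 cassettes read far above the short-Klf4 cassettes in both lists.

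Markers of other cell types differed little as lists. The median differences were 0.02 for 16 endothelial genes, -0.02 for 22 blood and macrophage genes, 0.02 for 19 skeletal muscle genes and -0.05 for 11 adipocyte genes. Of all genes of these 4 lists 1 was 2-fold away and outside the range, the receptor Kit. It read 7.06 in STEMCCA, against 8.21, 8.52 and 7.61 in OKMS, EB-C5 and WTSI and 7.21 to 7.74 in the remaining 4 cassettes. Laptm5, a lysosomal protein of blood cells, read 10.51 in STEMCCA and 10.57 in OKMS, against 8.11 in EB-C5 and 7.38 in WTSI, which is inside the range of the 3. The leukocyte antigen Ptprc read 5.62 in STEMCCA and 5.59 to 5.79 in the other 3, and the macrophage receptor Csf1r 5.99 and 5.95 to 6.05. Both were close to the level of 6 on all 4 arrays, and 9 of the 22 genes of the blood list read under it in STEMCCA, against 10, 8 and 9 in OKMS, EB-C5 and WTSI. Median levels of the blood list were 6.15 in STEMCCA, against 6.13, 6.23 and 6.17 in OKMS, EB-C5 and WTSI. The lacZ cells were unsorted and harvested earlier, and wherever a lacZ level is given, the construct cannot be told apart from the day and the sort.

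The genes picked by the 2-fold rule were next placed among all 8 cassettes, as a description, since the choice of the genes favours an extreme STEMCCA level. Of the 246 higher genes STEMCCA had the highest level of the 8 cassettes in 201 (81.7%), against 14.7% of all genes, and of the 131 lower genes the lowest level in 100 (76.3%), against 13.9%. With all 7 other cassettes taken as the comparison, 142 genes were 2-fold higher and outside the range and 160 were 2-fold lower, and 0 were 2-fold above the nearest of the 7. Just inside the 2-fold threshold were Il1rl2 (1.0002) and Stard10 (1.001) on the higher side and Zpr1 (-1.0007) and Anxa8 (-1.0013) on the lower side. Just outside it were Hic1 (0.9997), Enpp5 (0.9981), Megf9 (-0.9983) and Rbfa (-0.9921).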

How the data were processed

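Gene expression was measured on 11 Affymetrix arrays, 1 per construct. The deposited values are log2 signals that the authors made with RMA, per the submitters' processing notes. RMA corrects the background, normalizes between arrays and summarizes probe sets, and can understate large differences. The sources used here do not name its version. Of 28856 probe sets 21789 had 1 gene symbol, 1621 several and 5446 none in the platform's probe table, and 21698 of the first kind matched the RefSeq gene table. For 999 genes with several probe sets the one with the highest mean was kept, which left 19938 genes with no filter on dim ones.

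Arrays were grouped as STEMCCA (1), OKMS, EB-C5 and WTSI (3), remaining cassettes (4), Klf4 alone (2) and lacZ (1), and fitted with limma 3.58.1 in R 4.3.3 (lmFit and eBayes, 6 residual degrees of freedom, Benjamini-Hochberg adjustment over all genes, calls at an adjusted p under 0.05). The labels do not say that any construct was cultured more than once, so p-values measure the spread between constructs, and STEMCCA and lacZ, with 1 array each, were assumed to vary like the others. Fold rules used 1 on the log2 scale, and levels under 6 were treated as background. Each pair of the 4 short-Klf4 arrays had 622 to 811 probe sets with identical values, and no array repeated another. The fit was tested on simulated data that gave STEMCCA the same spread as the other arrays. Whether STEMCCA varies like the others was not tested by it.

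Members, rules and the 36 gene lists (710 entries, 679 measured) were chosen with earlier results of these data known. Named were 12 genes per direction (called by limma, filled up with the largest differences among genes 2-fold beyond the nearest array), the 4 factors and up to 4 members per list past the 2-fold rule; predicted genes, small RNAs and sensory receptors were counted only. List counts carry no test. Promoter sequences were taken from RefSeq (GRCm38.p6) by symbol and searched over 250 bases before the start with Python 3.11.15. Alternatives changed the arrays fitted, the variance moderation, the scaling, the filter, the choice of probe set, the fold and the cassettes compared.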

Additional observations from a re-analysis of the deposited data

Results flagged for a closer look

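Among the 61 named genes, the 4 remaining cassettes were searched for an array far from the other 3. For Mfap5 OKN-HAMS read 7.94, against 9.86 to 10.21 on the other 3 arrays (gap over range 0.847). For Hoxd11 OKN-HAMS read 7.17, against 8.32 to 8.52 (gap over range 0.849). Chance passes the 95% critical value of this gap in about 1 in 20 groups, and 2 of the 61 genes passed it. STEMCCA read 9.62 for Mfap5 and 8.77 for Hoxd11, so for both genes it lay above OKN-HAMS, which was at the level of EB-C5.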

How the results depend on the processing

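The comparison has 1 array on one side and 3 on the other, and the limma calls rest on a spread pooled over groups of different constructs. Against 0 higher and 7 lower calls, limma called 0 and 0 with only the 4 short-Klf4 arrays, 0 and 1 with only the 8 cassettes, 3 and 7 with a variance trend, 2 and 9 after quantile normalization, and 1 and 3 with all 7 other cassettes as the comparison, where 2 of the 7 genes remained. Leaving out 1 of OKMS, EB-C5 and WTSI gave 0 to 13 higher and 6 to 20 lower calls, with the highest counts without OKMS. The 2-fold rule gave 142 higher and 160 lower genes against all 7 other cassettes, 1063 and 635 at 1.5-fold, and 21 and 26 at 3-fold, and 275 to 317 higher and 118 to 165 lower genes with 1 array left out. The rule of 2-fold beyond the nearest array gave 120 to 192 higher and 52 to 102 lower genes with 1 array left out, the highest both without OKMS, with 165 higher without EB-C5 and 64 lower without WTSI, and 0 higher and 21 lower genes against all 7; fewer arrays in the comparison make this rule easier to meet. Centring each array on its median put the median difference over all genes at -0.07, against -0.01 in the deposited values, and gave 202 higher and 158 lower genes by the 2-fold rule. No named gene that passed limma changed direction under any alternative run, while the Myc difference of 0.02 was -0.28 without EB-C5, -0.15 against all 7 and -0.04 after centring. Of the values for gene lists 241 moved by less than the spread between OKMS, EB-C5 and WTSI and 47 by more. No paired analysis was possible because the labels give the constructs no replicate numbers. Signal near background limits the lower side of a difference, and these arrays hold no repeat that would show the error of a single array.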

Other observations

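These genes were picked after their values were seen and carry no test of their own. Interferon-inducible genes outside the list also read higher in STEMCCA than in OKMS, EB-C5 and WTSI: the GTPase Gbp7 (1.58), Phf11d (1.58), Trim12a (1.47), Ifi27 (1.42), Rtp4 (1.36), Samd9l (1.36), Rnf213 (1.36) and the DNA-sensing Ifi203 (1.34). Gbp7 read 9.93 in STEMCCA, against 8.37, 8.70 and 7.99, and Ifi203 read 9.46, against 7.98, 8.22 and 8.13. None passed limma with Benjamini-Hochberg adjustment over all genes, with adjusted p of 0.25 for Gbp7 and 0.20 for Ifi203.

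A few other genes, none of which passed limma, had large differences. The protocadherin Fat4 read 10.97 in STEMCCA, against 9.06, 9.90 and 9.07 in OKMS, EB-C5 and WTSI, and its partner Dchs1 read 9.62, against 8.10, 8.26 and 8.03. The zinc finger factors Osr1 and Osr2, which act in limb and joint mesenchyme, read higher by 1.44 and 1.39, and the opioid precursor Penk by 1.57. Among lower genes the fatty acid carrier Fabp5 read 9.75 in STEMCCA, against 11.33, 11.54 and 11.73, and Hpdl, a dioxygenase-like protein, read 7.74, against 9.99, 9.74 and 10.08.

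Some genes set STEMCCA and OKMS together against EB-C5 and WTSI. Besides Cdh1 and Laptm5, the serine protease inhibitor Spint1 read 9.90 in STEMCCA and 10.52 in OKMS, against 8.35 in EB-C5 and 7.27 in WTSI. Trh, the thyrotropin-releasing hormone precursor, read 9.99 in STEMCCA and 11.11 in OKMS, against 7.61 and 7.23. Lin28a was high in EB-C5 alone, at 11.66, and read 6.96 in STEMCCA, 6.81 in OKMS and 6.74 in WTSI.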
